A study of Mus musculus with 4 samples.

Results

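The cytosolic ribosomal protein genes were examined in 4 transcriptomes of a mouse cell line, CAD (Cath.-a-differentiated), of catecholaminergic origin that becomes neuron-like without serum. The members were all rows of the deposited table whose symbol is Rpl or Rps followed by a number (with an optional a, l, l1 or x), and Rpsa, Rplp0, Rplp1 and Rplp2. They came to 83 of 24341 genes, 51 of the large and 32 of the small subunit. Of the 4 libraries, 2 came from cells given 20 µM of ACSS2i, a quinoxaline urea that inhibits ACSS2, for 24 h, and 2 from cells given the solvent DMSO for 24 h. All cultures spent 5 days without serum, and polyadenylated RNA was sequenced. ACSS2 turns acetate into acetyl-CoA outside the mitochondria, and the comparison asked how expression differed when it was inhibited. The cells are 1 tumour-derived line, and no label states that replicate libraries were grown apart, so p-values measure only the spread between them, which may be technical.

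A cytosolic ribosome holds 1 copy of nearly every ribosomal protein, with the acidic stalk proteins as the exception, so its genes are usually expressed together and at high levels. Their mRNAs begin with a pyrimidine tract, the TOP motif, through which growth signalling by mTOR controls their translation. Mammalian genomes carry many processed pseudogenes of these genes, and some have an expressed paralog that can replace the usual protein in certain tissues.

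No ribosomal protein gene differed between ACSS2i and DMSO beyond the spread between libraries in a test adjusted over all genes. Values are FPKM, fragments scaled by transcript length and library size, and fold changes are differences of log2(FPKM + 1), ACSS2i minus DMSO, from a limma fit over 11486 genes (mean over the libraries of 1 FPKM or more), 80 of the 83 members among them. With Benjamini-Hochberg adjustment over all genes, 0 members passed an adjusted p of 0.05, against 0.0261% of all genes tested (0.0174% higher with ACSS2i and 0.00871% lower). The smallest adjusted p of a member was 0.589, for Rps27, and the next was 0.811, shared by Rps2 and Rpl22. At an unadjusted p under 0.05 there was 1 member, Rps27, higher with ACSS2i, against 6.96% of all genes, 3.29% higher and 3.67% lower. With 2 libraries in each group the smallest p of an exact two-sided permutation test is 0.333, and none was used. Rps27 shared nearly all of its sequence with a second row of the table, and the groups overlapped in the sum of both. In bulk RNA, a different make-up of the culture and a different level per cell cannot be told apart.

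Rps27 was the 1 member with an unadjusted p under 0.05 by limma. The first sequences to show are therefore its start and that of its retrogene Rps27rt. Both are windows of 30 bases from RefSeq on GRCm38.p6, at chr3:90213628-90213657 for Rps27 and chr9:114982720-114982749 for Rps27rt, both on the minus strand. Capitals mark the first 20 bases of a run of 38 bases that the starts share, which begins at base 2 of Rps27 and base 1 of Rps27rt, counted from the RefSeq start.
Rps27: gctttcgctcCTTTCCGGCGGTGACGACCT
Rps27rt: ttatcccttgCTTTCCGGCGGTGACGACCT
The bases before the run differ, and within it the letters CTTTCC form a pyrimidine stretch in both.

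Rps27 encodes a zinc finger protein of the small subunit and lies at chr3:90212522-90213651, minus strand (GRCm38, GENCODE M21). It had 936 and 541 FPKM with ACSS2i, against 282 and 332 FPKM with DMSO (log2 fold change 1.21 ± 0.36, SE; unadjusted p = 0.0146, adjusted p = 0.589 by limma). Both ACSS2i libraries lay above both DMSO libraries, and the ACSS2i libraries differed from each other more than the DMSO libraries did. Rps27rt, at chr9:114982366-114982739, minus strand, is a retrogene annotated as protein-coding. It had 1689 and 2241 FPKM with ACSS2i, against 2434 and 2781 FPKM with DMSO (log2 fold change -0.42 ± 0.35, SE; adjusted p = 0.845 by limma). Here both ACSS2i libraries lay below both DMSO libraries, the opposite order. Of the windows of 50 bases in the annotated Rps27 transcript, 98.6% also occur in Rps27rt. The sum of both rows was 2625 and 2782 FPKM with ACSS2i, against 2717 and 3113 FPKM with DMSO, and its groups overlapped. With copies added to their member before the fit, a setting chosen after the values were seen, the log2 fold change of Rps27 turned to -0.11. How the deposited values divide fragments between such copies is not given in the sources used here, so the value of Rps27 alone is uncertain. The part of the shared sequence in the result was not tested.

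**Figure D1:**
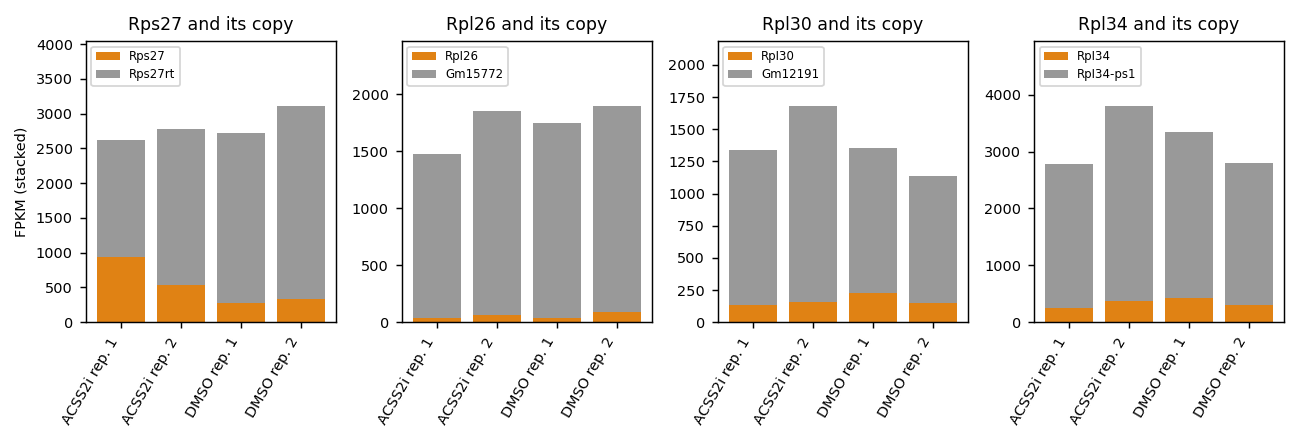
Stacked bars give the FPKM of 4 members (orange) and of the copy in the table that shares their sequence (grey) in each library, ACSS2i left of DMSO. The copy holds most of each bar, and the orange part of Rps27 is 936 and 541 FPKM with ACSS2i, against 282 and 332 FPKM with DMSO, within bars of similar height.

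Copies held most of the signal for 3 further members, Rpl26, Rpl30 and Rpl34. Rpl26, a large subunit protein known to bind the 5′ end of p53 mRNA, had 38.9 and 66.0 FPKM with ACSS2i, against 34.0 and 91.2 FPKM with DMSO. Its processed pseudogene Gm15772 had 1435 and 1792 FPKM with ACSS2i, against 1714 and 1809.7 FPKM with DMSO, and contains 51.9% of the 50-base windows of Rpl26. The member thus stood among the lowest of the tested ribosomal protein genes, while its sum with the copy, 1666 ± 271 FPKM with ACSS2i and 1825 ± 108 FPKM with DMSO (SD, n = 2 each), lay near the middle of the family. Rpl30, which had the most negative fold change of the family, had 137 and 157 FPKM with ACSS2i, against 227 and 152 FPKM with DMSO (log2 fold change -0.34 ± 0.30, SE; unadjusted p = 0.297). Its pseudogene Gm12191 had 1201 and 1526 FPKM with ACSS2i, against 1125 and 984 FPKM with DMSO, with both ACSS2i libraries above both DMSO libraries. The groups of Rpl30 itself overlapped, and with the copy added its log2 fold change was 0.28, of the other sign. Rpl34 had 243 and 372 FPKM with ACSS2i, against 431 and 301 FPKM with DMSO (log2 fold change -0.26 ± 0.35, SE), with overlap between groups. Its pseudogene Rpl34-ps1 had 2547 and 3433 FPKM with ACSS2i, against 2915 and 2496 FPKM with DMSO. Rpl34-ps1 contains 37.9% of the windows of Rpl34, and with the copy added the log2 fold change was 0.0909. In all 4 of these pairs the copy was the larger row in every library. The other rows that hold at least 20% of a member's windows were small beside it (Rpl14-ps1, Gm15421, Rpl31-ps12, Rpl37rt, Wdr89 and Gm6654, at 0.01 to 8.74 FPKM).

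Shared sequence was general in the family. Of the 83 members, 80 had at least 1 window of 50 bases that also occurs in a transcript of another annotated gene, and in 35 more than 50% of the windows did. The median share was 43.9%. All 80 shared with at least 1 annotated pseudogene, with a median of 8 and a maximum of 119, for Rpl7a. Rpl39l and Rpl3l were among those without a shared window. The read length is not given in the sources used here, so 50 bases is a chosen length.

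Levels of the tested members, which are per length on the FPKM scale, ran from 19.6 to 5977 FPKM in ACSS2i replicate 1 and from 17.8 to 7999 FPKM in ACSS2i replicate 2. In the DMSO libraries they ran from 21.1 to 7307 FPKM in replicate 1 and from 17.1 to 5385 FPKM in replicate 2. The medians were 1257 and 1708 FPKM with ACSS2i, against 1445 and 1205 FPKM with DMSO. They overlapped between groups, with ACSS2i replicate 2 highest. In every library 6 tested members were under 100 FPKM: Rpl22l1, Rpl7l1, Rpl39l, Rpl26, Rps27l and Rps15a, the last named after its values were seen. The order of the members was nearly the same in each library, with Pearson's r of log2(FPKM + 1) across the 80 members from 0.971 to 0.992 between pairs of libraries. Members are not independent replicates, and gene length and copy number are shared by all libraries. The highest mean was that of Rplp1, an acidic stalk protein that helps recruit the translational GTPases, at 5977 and 7999 FPKM with ACSS2i, against 7018 and 4909 FPKM with DMSO. Rpl23a, at the exit of the peptide tunnel, had 5075 and 7689 FPKM with ACSS2i, against 5485 and 5385 FPKM with DMSO. Rpl35, of the same region, had 4732 and 6482 FPKM with ACSS2i, against 5725 and 4476 FPKM with DMSO. For both genes ACSS2i replicate 2 was the highest library and the groups overlapped. Rpl36a had 4772 and 5497 FPKM with ACSS2i, against 7307 and 3630.1 FPKM with DMSO. The fifth, Rpl17, had 3699.7 and 4670.3 FPKM with ACSS2i, against 4773 and 4339.9 FPKM with DMSO. The DMSO libraries of Rpl36a lay on either side of both ACSS2i libraries.

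**Figure D2:**
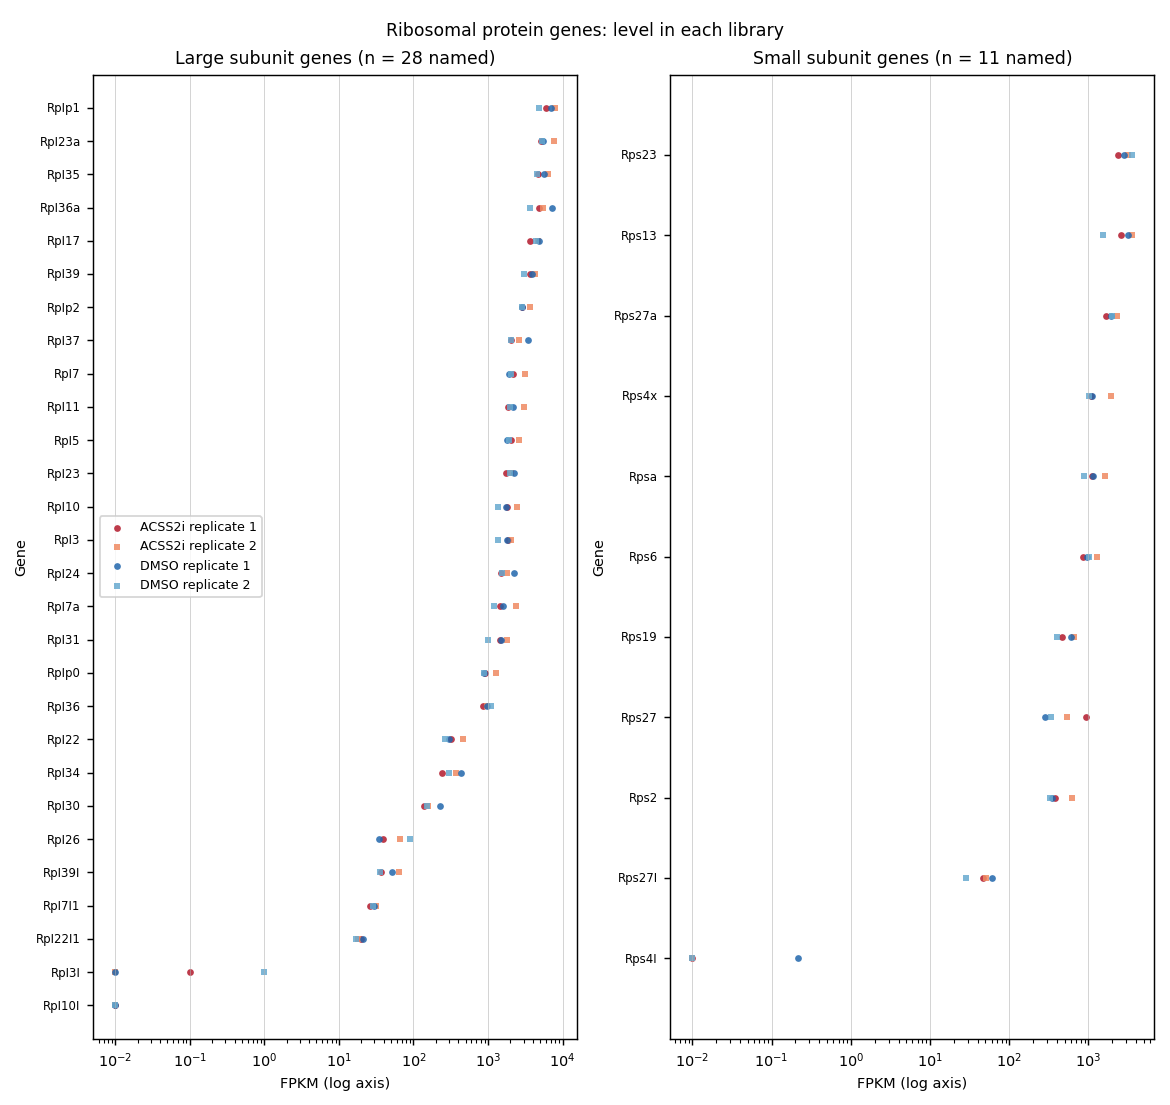
Each row is a ribosomal protein gene picked by the naming rule and each point its FPKM (log axis) in 1 library, with ACSS2i in reds and DMSO in blues, large subunit left and small subunit right, ordered by mean. Points of the 4 libraries lie close together for most genes, Rps27 stands out with 936 FPKM in ACSS2i replicate 1, and Rpl3l, Rpl10l and Rps4l sit under 1 FPKM, down to the floor of 0.01 FPKM.

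The members shifted together from library to library, also within a group. Summed over the 83 members, the FPKM values came to 129220.0 and 169574 with ACSS2i, against 147623 and 124607 with DMSO. This was 23.1% and 25.1% of all FPKM with ACSS2i, against 25.0% and 21.1% with DMSO. The groups overlapped on both measures, with ACSS2i replicate 2 and DMSO replicate 1 high and the other libraries low. The total of all genes was itself 558458 and 675716 FPKM with ACSS2i, against 590549 and 590108 FPKM with DMSO, and short RNA genes took 6.59% and 7.49% with ACSS2i, against 7.35% and 11.6% with DMSO. ACSS2i replicate 2 was the highest of the 4 libraries for 61 of the 80 tested members, and it exceeded ACSS2i replicate 1 for 77 of 80. DMSO replicate 1 exceeded DMSO replicate 2 for 53 of 80. Relative to each gene's mean over the 4 libraries, the median member stood at -0.13 and 0.27 on the log2 scale in the ACSS2i libraries, against 0.00395 and -0.13 in the DMSO libraries. The medians of all genes tested were within 0.01 of 0 in the ACSS2i libraries and at -0.00232 and -0.01 in the DMSO libraries. DMSO replicate 2 was also the shallowest library, with 0.292 times the depth of DMSO replicate 1, while the ACSS2i libraries had 0.675 and 0.857 times that depth, read from the steps of the lowest values. The part of depth and of the totals in these shifts was not tested.

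**Figure D3:**
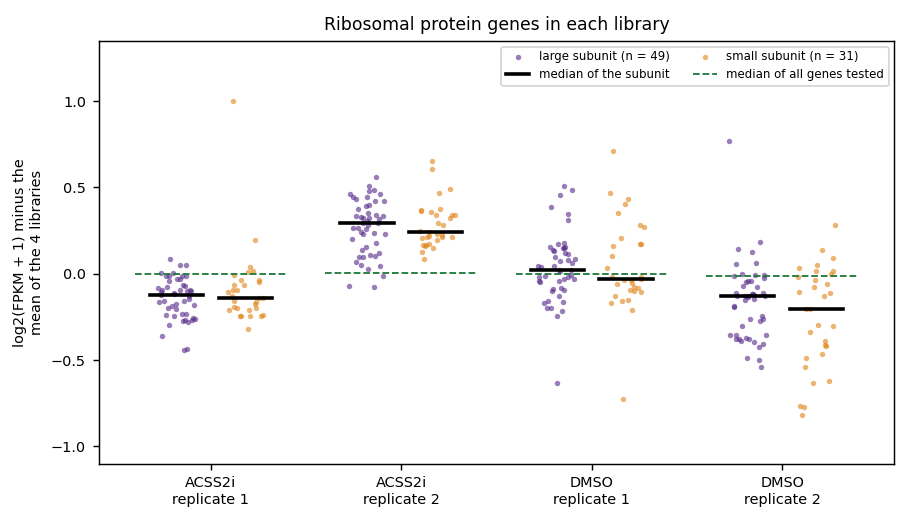
Each point is a tested ribosomal protein gene, plotted as its log2(FPKM + 1) in a library minus the mean of the 4 libraries. Black bars are subunit medians and dashed lines the median of all genes tested. Both subunits sit high in ACSS2i replicate 2 (medians 0.29 and 0.24) and low in ACSS2i replicate 1 (-0.13 and -0.14), with the DMSO libraries at 0.023 and -0.0317 in replicate 1 and -0.13 and -0.20 in replicate 2.

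Of the 80 tested members 61 had a positive log2 fold change, 76.2%, against 52.2% of all genes tested, and the median was 0.16, against 0.0198 over all genes. The size and sign of this median depended on single libraries and on the scaling. Without ACSS2i replicate 2 the subunit medians were -0.0735 (large) and -0.0497 (small), with 33 of 80 positive. Without ACSS2i replicate 1 they were 0.36 and 0.36, with 73 positive, and without DMSO replicate 2 0.0548 and 0.0328. Under quantile normalization they turned to -0.0138 and -0.0109, with 39 positive. That method gives every library the same set of values. The members are among the highest of these, so it removes much of any shift they share, and the sign it gives cannot be read as a result. The groups did not overlap for 12 members higher with ACSS2i, 15.0% against 19.0% of all genes, and for 1 member lower, 1.25% against 18.3%.

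Both subunits gave similar values, and the difference between them was not tested. The large subunit genes had a median log2 fold change of 0.17, with 34 of 49 positive, and the small subunit genes 0.15, with 27 of 31 positive. The summed FPKM of the large subunit genes was 1.99 and 2.03 times that of the small subunit genes with ACSS2i, against 1.99 and 2.05 times with DMSO. These ratios overlapped, although the summed FPKM of all members differed more widely between libraries. With ACSS2i 8 large subunit genes (16.3%) and 4 small subunit genes (12.9%) lay above DMSO in both libraries, against 19.0% of all genes tested. Among them were Rpl3, Rpl5, Rpl7, Rpl10, Rpl22 and Rplp0 of the large and Rps2 and Rps27 of the small subunit. Rpl36, at 848 and 959.6 FPKM with ACSS2i, against 978 and 1100.4 FPKM with DMSO, was the member that lay below (log2 fold change -0.20 ± 0.30, SE; adjusted p = 0.929 by limma).

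**Figure D4:**
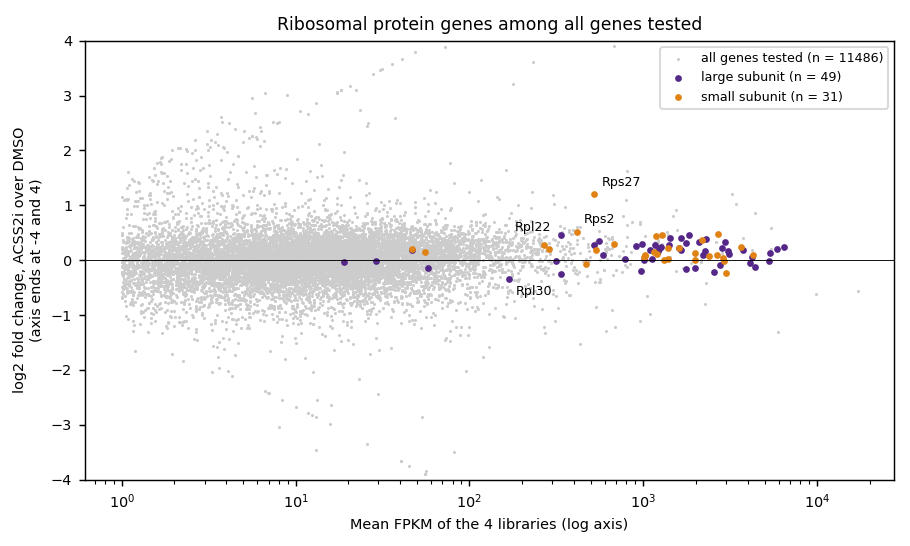
Each point is a gene, with its mean FPKM over the 4 libraries (log axis) against its log2 fold change, ACSS2i over DMSO. The ribosomal protein genes (purple and orange) lie between -0.34 (Rpl30) and 0.51 (Rps2), with Rps27 apart at 1.21.

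In the large subunit, the positive end of the range was led by Rpl22, which binds RNA and is dispensable for translation in general. It had 323 and 463 FPKM with ACSS2i, against 296 and 267 FPKM with DMSO (log2 fold change 0.46 ± 0.30, SE; adjusted p = 0.811 by limma). Rpl10, which joins late in assembly and lies near the peptidyl transferase centre, had 1789 and 2426 FPKM with ACSS2i, against 1719.8 and 1345 FPKM with DMSO (log2 fold change 0.45 ± 0.35, SE). In both genes ACSS2i replicate 1 was close to DMSO replicate 1, and ACSS2i replicate 2 was the high library. Rpl7a had 1431 and 2355 FPKM with ACSS2i, against 1576 and 1217 FPKM with DMSO (log2 fold change 0.41 ± 0.39, SE), with overlap. Rpl31 had a log2 fold change of 0.40 and Rpl7 of 0.39. Rpl5 and Rpl11 form with 5S rRNA a particle that can bind and restrain Mdm2. Rpl5 had 2057 and 2630.2 FPKM with ACSS2i, against 1792 and 1924 FPKM with DMSO (log2 fold change 0.32 ± 0.34, SE). Rpl11 had 1829 and 3011 FPKM with ACSS2i, against 2193 and 1996 FPKM with DMSO (log2 fold change 0.17 ± 0.39, SE). The groups of Rpl11 overlapped and those of Rpl5 did not. The difference between these genes was not tested. The stalk base protein Rplp0 had 910.1 and 1281 FPKM with ACSS2i, against 872 and 892 FPKM with DMSO (log2 fold change 0.29 ± 0.32, SE). Its partner Rplp2 had 2839.9 and 3655 FPKM with ACSS2i, against 2830.4 and 2892 FPKM with DMSO (log2 fold change 0.17 ± 0.35, SE). Rplp1 had a log2 fold change of 0.24. All 3 stalk genes were highest in ACSS2i replicate 2.

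At the negative end of the large subunit, Rpl37 had 2057 and 2569 FPKM with ACSS2i, against 3476 and 2066 FPKM with DMSO (log2 fold change -0.22 ± 0.40, SE), with DMSO replicate 1 high and the other libraries together. Rpl24, a protein at the subunit interface, had 1479 and 1822 FPKM with ACSS2i, against 2210.1 and 1522 FPKM with DMSO (log2 fold change -0.16 ± 0.36, SE), and showed the same order of DMSO replicate 1 above the rest. Rpl23 and Rpl26 had log2 fold changes of -0.15 and -0.14. The fitted standard errors of these members, between 0.33 and 0.51, were larger than their fold changes.

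In the small subunit, Rps2, a protein at the mRNA entry channel, had 376 and 611 FPKM with ACSS2i, against 346 and 326 FPKM with DMSO (log2 fold change 0.51 ± 0.33, SE; adjusted p = 0.811 by limma). Rps13 had 2599 and 3551 FPKM with ACSS2i, against 3126 and 1514 FPKM with DMSO (log2 fold change 0.48 ± 0.47, SE), with DMSO replicate 2 low and the groups overlapping. Rps4x, the X-linked copy of Rps4, had 1082 and 1949 FPKM with ACSS2i, against 1116 and 1006 FPKM with DMSO (log2 fold change 0.45 ± 0.39, SE). For Rps4x 3 libraries lay close together and ACSS2i replicate 2 stood above them. Leaving out 1 library gave log2 fold changes from 0.16 to 0.86 for Rps2 and from 0.0303 to 0.88 for Rps4x. Rpsa, also known as the laminin receptor, had 1117 and 1626 FPKM with ACSS2i, against 1128 and 869 FPKM with DMSO (log2 fold change 0.44 ± 0.35, SE). Rps6, the substrate of the S6 kinases, had 855 and 1267 FPKM with ACSS2i, against 948 and 1026 FPKM with DMSO (log2 fold change 0.0781 ± 0.34, SE). Neither separated the groups. The fold change of Rps6 turned to -0.13 under quantile normalization, -0.0181 with libraries rescaled without short RNA genes and -0.0436 after the length and GC correction. Rps19, mutated in human Diamond-Blackfan anaemia, had 469 and 665 FPKM with ACSS2i, against 605 and 401 FPKM with DMSO (log2 fold change 0.18 ± 0.35, SE). Rps27a, made as a fusion with ubiquitin, had 1657 and 2311 FPKM with ACSS2i, against 1913 and 2004 FPKM with DMSO (log2 fold change -0.000635 ± 0.35, SE). Rps23, at the decoding centre, had 2353 and 3125 FPKM with ACSS2i, against 2839.8 and 3584 FPKM with DMSO (log2 fold change -0.23 ± 0.37, SE), the most negative value of the small subunit, and its groups overlapped.

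The paralogs Rpl22l1, Rpl7l1 and Rpl39l stood far below their usual counterparts. Rpl22l1, the paralog of Rpl22, had 19.6 and 17.8 FPKM with ACSS2i, against 21.1 and 17.1 FPKM with DMSO (log2 fold change -0.0258 ± 0.23, SE). Its level per length was 6.06% and 3.85% with ACSS2i, against 7.14% and 6.41% with DMSO, of that of Rpl22. Both ACSS2i libraries lay below both DMSO libraries in this ratio, by a log2 difference of -0.49. Among single genes, 37.3% of all tested did not overlap in either direction, and no such share was counted for ratios. The groups of Rpl22l1 itself overlapped and those of Rpl22 did not. Rpl7l1 had 26.4 and 31.6 FPKM with ACSS2i, against 29.5 and 28.7 FPKM with DMSO. Its level per length was 1.23% and 1.02% with ACSS2i, against 1.55% and 1.41% with DMSO, of Rpl7. Here too the ratio did not overlap, with Rpl7 higher in both ACSS2i libraries and Rpl7l1 at a log2 fold change of -0.0077. Of the 50-base windows, 57.3% of Rpl22l1 and 53.3% of Rpl7 also occur in other annotated genes, so both ratios are uncertain. Rpl39l, best known from testis, had 36.9 and 64.0 FPKM with ACSS2i, against 51.7 and 35.5 FPKM with DMSO. It was 1.01% and 1.51% with ACSS2i, against 1.33% and 1.15% with DMSO, of Rpl39. Rpl39, at the peptide tunnel, had 3659.6 and 4244 FPKM with ACSS2i, against 3897 and 3082 FPKM with DMSO (log2 fold change 0.19 ± 0.37, SE). For this pair the ratio overlapped between groups. Rps27l, the paralog of Rps27 and a p53 target, had 46.2 and 50.4 FPKM with ACSS2i, against 61.1 and 28.6 FPKM with DMSO (log2 fold change 0.20 ± 0.38, SE). Its ratio to Rps27 is not used because of the copy of Rps27 described above. Rpl3 had 1862 and 2055 FPKM with ACSS2i, against 1826 and 1345 FPKM with DMSO (log2 fold change 0.32 ± 0.34, SE), with both ACSS2i libraries above both DMSO libraries. Its muscle paralog Rpl3l was listed at 0.101 and 0.01 FPKM with ACSS2i, against 0.01 and 0.982 FPKM with DMSO. The testis paralog Rpl10l was at the floor of 0.01 FPKM in all 4 libraries, and Rps4l, annotated as a transcribed processed pseudogene, was above the floor in DMSO replicate 1, at 0.216 FPKM, and at the floor in the others. These 3 members were not tested.

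Of 6 measured ribosomal protein genes whose symbols fall outside the naming rule, Rps27rt among them, 0 passed the adjusted threshold and 5 had a positive fold change. Rps3a1 had 2441 and 3389.9 FPKM with ACSS2i, against 2386 and 2211 FPKM with DMSO (log2 fold change 0.32 ± 0.36, SE), above DMSO in both libraries. The scaffold protein Rack1, listed as Gnb2l1, had 726 and 1132 FPKM with ACSS2i, against 749.8 and 604 FPKM with DMSO (log2 fold change 0.43 ± 0.35, SE). The groups of Gnb2l1 overlapped, with ACSS2i replicate 2 highest. Rpl36al, the paralog of Rpl36a, had 27.7% and 29.2% of its level per length with ACSS2i, against 18.7% and 38.9% with DMSO, with the DMSO libraries on either side. Fau and Rpl36al had log2 fold changes of 0.00709 and 0.0664.

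Other genes of the translation machinery were counted from lists chosen with earlier results of these data known. In each list 0 genes passed an adjusted p of 0.05. Among 43 translation elongation and initiation factors, many of which also carry TOP mRNAs, 37 had a positive log2 fold change, with a median of 0.35. The groups did not overlap for 21 higher (48.8%, against 19.0% of all genes) and 2 lower (4.65%, against 18.3%), and 4 higher passed an unadjusted p of 0.05, as did 3.29% of all genes. Those 4 were Eif4b, Eef1d, Eif3f and Eif3l. Eif4b, a helper of the helicase of translation initiation, had 296 and 267 FPKM with ACSS2i, against 178 and 164 FPKM with DMSO. Its log2 fold change was 0.71 ± 0.25 (SE, unadjusted p = 0.0298, adjusted p = 0.646 by limma). Eef1a1, which delivers aminoacyl-tRNA, had 5593 and 7415 FPKM with ACSS2i, against 4753 and 3853 FPKM with DMSO (log2 fold change 0.59 ± 0.39, SE). The translocase Eef2 had 1645 and 1569.8 FPKM with ACSS2i, against 1156 and 1170.0 FPKM with DMSO (log2 fold change 0.47 ± 0.30, SE). In all 3 genes both ACSS2i libraries lay above both DMSO libraries. Ribosome biogenesis factors were positive in 51 of 64, with a median of 0.22. They did not follow the ribosomal proteins across libraries: their median relative to the 4-library mean was 0.26 and -0.0876 in the ACSS2i libraries, against -0.20 and 0.00141 in the DMSO libraries, so that ACSS2i replicate 1 was the high library. Mdn1, the giant ATPase of large subunit maturation, had 12.7 and 13.5 FPKM with ACSS2i, against 23.9 and 22.4 FPKM with DMSO (log2 fold change -0.77 ± 0.22, SE; unadjusted p = 0.012, adjusted p = 0.559 by limma). It was the only 1 of these 64 genes with an unadjusted p under 0.05 by limma, against 6.96% of all genes tested. Its log2 fold change was -0.46 ± 0.22 (SE) after a correction for length and GC content. Nob1, the nuclease that ends 18S rRNA maturation, had 41.4 and 48.0 FPKM with ACSS2i, against 31.5 and 30.2 FPKM with DMSO (log2 fold change 0.52 ± 0.23, SE). Nucleolin (Ncl) had 443 and 259 FPKM with ACSS2i, against 211 and 329 FPKM with DMSO. Nucleophosmin (Npm1) had 3824 and 4672 FPKM with ACSS2i, against 3219 and 3178 FPKM with DMSO. Ncl overlapped between groups and Npm1 did not. The RNA polymerase I list had 10 of 14 positive (median 0.13), and growth signalling 7 of 16 (median -0.0381). Myc, a transcription factor that drives ribosome production, had 149 and 71.9 FPKM with ACSS2i, against 101 and 109 FPKM with DMSO, with the ACSS2i libraries on either side of the DMSO libraries. Beside these lists, 18 cell division genes summed to 215 and 426 FPKM with ACSS2i, against 66.6 and 106 FPKM with DMSO, with both ACSS2i libraries above both DMSO libraries. Their part in the values of the ribosomal proteins was not tested.

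**Figure D5:**
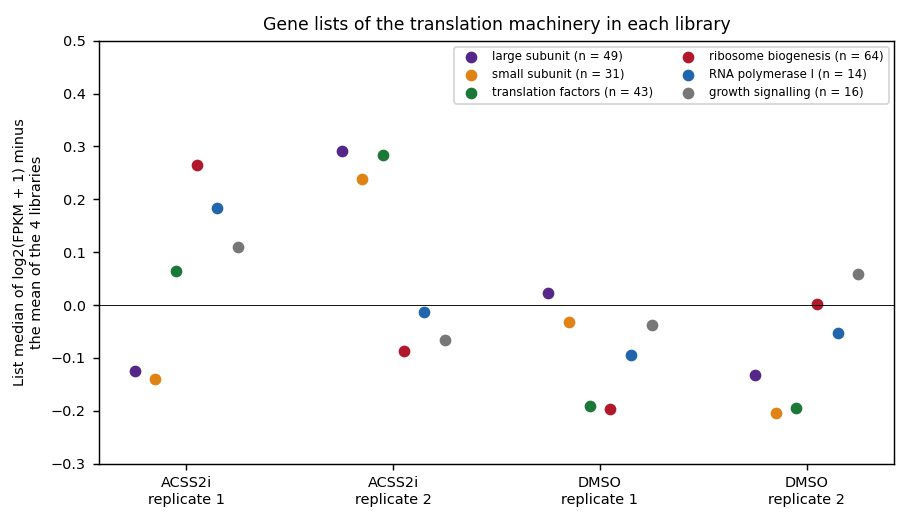
Each point is the median over a gene list of log2(FPKM + 1) minus the mean of the 4 libraries. Both ribosomal protein subunits are low in ACSS2i replicate 1 and high in ACSS2i replicate 2, ribosome biogenesis factors run the other way (0.26 and -0.0876), and translation factors are above 0 in both ACSS2i libraries (0.0638 and 0.28) and below it in both DMSO libraries (-0.19 and -0.19).

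Introns of ribosomal protein genes hold many small nucleolar RNAs (snoRNAs), guides of rRNA modification that are released when the host intron is processed. The annotation places 64 small RNA genes inside 31 members on the same strand, 36 of them in the table, and 18 of these were at the floor in all 4 libraries. The libraries were made from polyadenylated RNA, which snoRNAs lack. Snora64, in an intron of Rps2 at chr17:24720772-24720905, plus strand, had 49.3 and 77.7 FPKM with ACSS2i, against 0.01 and 0.01 FPKM with DMSO, where 0.01 is the floor. It passed the filter on low values through the ACSS2i libraries alone, so no test is given. Its host Rps2 was expressed in all 4 libraries, as given above. Snora70, in an intron of Rpl10, had 0.01 and 0.01 FPKM with ACSS2i, against 40.4 and 138 FPKM with DMSO, and passed the filter through the DMSO libraries alone. The host Rpl10 was higher in both ACSS2i libraries, the opposite order to its snoRNA. Of 5 hosted RNAs above the floor in all libraries, 2 are given after their values were seen. Snora65, in Rpl12, had 1933 and 1670.4 FPKM with ACSS2i, against 2641 and 1309.6 FPKM with DMSO. Snord16a, in Rpl4, had 497 and 1762 FPKM with ACSS2i, against 336 and 575 FPKM with DMSO. Both overlapped between groups.

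Promoters of the members were compared with all promoters. Their part in the shifts between libraries was not tested. RefSeq gave 74 promoters, from 250 bases before to 50 after a start, for 62 of the 83 members, among 32851 in all. Motifs were searched on both strands. The letters CGGAAG, the core bound by ETS factors, occurred in 59.5% of member promoters and 16.9% of all promoters. ATGGCG, part of the YY1 motif, occurred in 32.4% of member promoters and 8.93% of all promoters, and GGGCGG, the GC box, in 59.5% of member promoters and 35.7% of all promoters. TATAAA occurred in 9.46% of member promoters and 13.6% of all promoters, and CCAAT in 29.7% of member promoters and 37.4% of all promoters. A run of at least 6 C or T that reaches within 5 bases of the RefSeq start, as a TOP tract would, was found in 44.6% of member promoters and 21.0% of all promoters. These are matches of letters and show no binding. The windows of 30 bases that follow hold the CGGAAG core (or its reverse complement CTTCCG) in capitals, in members at the top or bottom of the range of fold changes and in Rpl35, 1 of the 5 most abundant.
Rps2: tatttatacgtcCTTCCGgctggtgtaggg
Rpl10: aatatggccaggCGGAAGctggtttctctt
Rpsa: ctttttccggagCGGAAGttctcccttttt
Rps13: cctcagatgcgaCTTCCGaagagatgttag
Rpl34: tccccgcgtccgCTTCCGtacaacatggcg
Rpl35: aggaaggcaggaCTTCCGggaagcggaggg

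In GRCm38.p6 the windows lie at chr17:24719924-24719953 (Rps2, plus strand), chrX:74270596-74270625 (Rpl10, plus strand), chr9:120127693-120127722 (Rpsa, plus strand), chr7:116334360-116334389 (Rps13, minus strand), chr3:130730432-130730461 (Rpl34, minus strand) and chr2:39005241-39005270 (Rpl35, minus strand). Windows were kept only where a core was found, so its presence in the genes shown was fixed by that choice. Of these genes, Rps2, Rpl10, Rpsa and Rps13 had positive fold changes and Rpl34 a negative one. Rpl5, Rpl11, Rpl22, Rpl26, Rplp0 and Rps4x were searched too and gave no window. A gene also gave none if it had no RefSeq promoter or if its core lay too near either end of it, so these may still have the core. The relation of the core to the fold changes was not tested.

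The labelled cell type was checked against its markers. Of 16 neuronal and catecholaminergic markers 15 had a mean of at least 1 FPKM, but Th was at 4.09 and 2.92 FPKM with ACSS2i and 3.53 and 3.16 FPKM with DMSO, and Dbh was under 1 FPKM in all 4 libraries. Summed markers came to at most 1.04 FPKM for astrocytes, 0.505 for microglia and 0.679 for fibroblasts in any library, and those of oligodendrocytes to 4.36 and 5.19 FPKM with ACSS2i, against 5.05 and 4.66 FPKM with DMSO, with Olig1 and Olig2 at the floor.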

How the data were processed

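PolyA RNA of 2 ACSS2i and 2 DMSO libraries was made into ScriptSeq v2 libraries and sequenced in 1 lane, per the labels' protocols. The deposited table gives 1 FPKM value per gene and library. STAR 2.3.0, Cufflinks 2.2.1, Cuffdiff and the mm10 build are named in the submitters' processing notes, without their roles; that the deposited values are FPKM was read from these tools and the values, and how they were adjusted is not given in the sources used here. Values carry no counts, so only relative depth is known. The lowest value listed is 0.01 FPKM, called the floor, and 1 gene with a failure mark was left out.

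From these values, log2(FPKM + 1) was taken for genes whose mean reached 1 FPKM. It was fitted with limma 3.58.1 (trend, R 4.3.3), ACSS2i against DMSO, with Benjamini-Hochberg adjustment. The fit was also run on simulated data in which genes varied independently, which does not cover shifts of many genes together. Members and lists were chosen with earlier results of these data known. Named were the 8 highest and 8 lowest fold changes, the 8 smallest p-values, the 5 highest means, paralogs, untested members and a fixed set of well-known genes; of each other list, up to 4 genes with the smallest p. Some genes that this rule or a count would name are not reported here. Copies were found as shared windows of 50 bases between GENCODE M21 transcripts; those with at least 20% of a member's windows are given. Promoters came from RefSeq (GRCm38.p6). Alternatives were other pseudocounts, filters and normalizations, a length and GC correction, a replicate block and leaving out each library.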

Additional observations from a re-analysis of the deposited data

How the results depend on the processing

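Of all genes tested, 3 passed an adjusted p of 0.05 by limma. The count was 6 with a pseudocount of 0.1, 0 with a pseudocount of 5, 0 without a filter on low values and 0 after a correction for length and GC content. Leaving out 1 library at a time gave 13 to 26 (13 without ACSS2i replicate 1, 16 without ACSS2i replicate 2, 26 without DMSO replicate 1 and 21 without DMSO replicate 2), where the lone sample is assumed to vary like the other group. Of the ribosomal protein genes 0 passed under any of these settings. At an unadjusted p under 0.05 by limma there was 1 in the main fit, against 6.96% of all genes tested. Among the settings that kept all 4 libraries, there were 0 without a filter or with copies added and 1 in each of the others. With the replicate block (the number in the labels as a block) 8 genes passed. Deviations of libraries with the same number had a correlation of -0.017, and the labels do not say that a number marks a shared culture or day, so the numbers are not taken as pairs. The median log2 fold change of the large subunit genes ranged from -0.0735 to 0.36 and that of the small subunit genes from -0.0497 to 0.36 when 1 library was left out. Copies added to their member, chosen after seeing the data, turned Rps27 to -0.11, Rpl30 to 0.28 and Rpl34 to 0.0909. Quantile normalization turned Rpl35 to -0.0745 and Rps6 to -0.13, which was -0.0181 after rescaling without short RNA genes and -0.0436 after the length and GC correction. Leaving out 1 library turned the sign of 22 named genes, with these lowest and highest log2 fold changes: Eif4ebp2 (-0.65 to 0.023), Myc (-0.54 to 0.50), Ncl (-0.0261 to 0.75), Rpl11 (-0.19 to 0.52), Rpl17 (-0.30 to 0.0372), Rpl22l1 (-0.17 to 0.12), Rpl23a (-0.0989 to 0.50), Rpl24 (-0.43 to 0.11), Rpl26 (-0.84 to 0.56), Rpl34 (-0.57 to 0.0475), Rpl35 (-0.0973 to 0.36), Rpl36a (-0.51 to 0.50), Rpl37 (-0.60 to 0.15), Rpl39l (-0.21 to 0.57), Rpl7l1 (-0.13 to 0.12), Rplp1 (-0.0213 to 0.49), Rplp2 (-0.0106 to 0.35), Rps13 (-0.0415 to 1.00), Rps19 (-0.11 to 0.48), Rps27a (-0.24 to 0.24), Rps27l (-0.33 to 0.74), Rps6 (-0.21 to 0.36). The cause was not tested. Without a change of sign, leaving out 1 library moved other uncalled genes widely, with ranges of 0.16 to 0.86 for Rps2, 0.0303 to 0.88 for Rps4x, 0.0468 to 0.77 for Rpl7a, 0.20 to 0.72 for Rpl22 and 0.23 to 0.67 for Rpl10. After the length and GC correction Mdn1 was at -0.46. Each group has 2 libraries, and depth is known only relative to each other.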
